A study of Mus musculus with 9 samples.

Results

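The suprachiasmatic nucleus signature genes were followed in the hypothalamus of Clic1 knockout (KO) and wild type (WT) mice. They were chosen by name as genes known to mark this nucleus (Vip, Vipr2, Prok2, Prokr2, Rgs16, Lhx1 and Six6), and all 7 of the 7 were found among the 14351 genes of the table. Avp, which this nucleus also makes, was left out on purpose because large neurons elsewhere in the hypothalamus make it too. RNA was sequenced from male mice fed normal chow, with 5 KO libraries (replicates 2, 4, 6, 8 and 10) and 4 WT libraries (replicates 1, 3, 9 and 11). The KO was of the whole body and not of a chosen cell type, and the WT mice were littermates. The study describes a CD-1 background, whereas the labels give C57b/6J and name an adipose tissue protocol beside the hypothalamus. Age and the time of day at which the tissue was taken were not given in the sources used here.

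The suprachiasmatic nucleus is a small paired group of neurons above the optic chiasm that holds the master circadian clock of mammals. Its core neurons release vasoactive intestinal peptide (Vip), which acts on the receptor encoded by Vipr2 and through cyclic AMP keeps the neurons in step with each other and with light. Prok2 encodes prokineticin 2, a secreted output signal that acts on the receptor encoded by Prokr2. Rgs16 encodes a regulator that shortens signalling by inhibitory G proteins and shapes the daily rhythm of cyclic AMP. Lhx1 and Six6 encode homeodomain transcription factors, of which Six6 is needed for the nucleus to form and Lhx1 for the neurons to express their peptides. Prok2, Rgs16 and Vip are known to change over the day, and none of the 7 genes is found in this nucleus alone.

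The DNA before 3 of the genes is shown because it carries the short motifs through which the clock and cyclic AMP are known to act. The sequences are from RefSeq on GRCm38.p6, run 5′ to 3′ on the gene's own strand, and stop 1 base before the annotated start site. The capitals mark CACGTG, the E-box bound by the clock proteins, and TGACG, the core of the cyclic AMP response element, searched on both strands.
Prok2, chr6:99726393-99726642, minus strand: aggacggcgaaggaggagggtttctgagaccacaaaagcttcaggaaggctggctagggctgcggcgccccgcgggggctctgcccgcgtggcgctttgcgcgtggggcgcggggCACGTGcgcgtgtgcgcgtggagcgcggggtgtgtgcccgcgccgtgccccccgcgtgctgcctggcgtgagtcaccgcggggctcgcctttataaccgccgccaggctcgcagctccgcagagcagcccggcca
Vip, chr10:5638968-5639217, plus strand: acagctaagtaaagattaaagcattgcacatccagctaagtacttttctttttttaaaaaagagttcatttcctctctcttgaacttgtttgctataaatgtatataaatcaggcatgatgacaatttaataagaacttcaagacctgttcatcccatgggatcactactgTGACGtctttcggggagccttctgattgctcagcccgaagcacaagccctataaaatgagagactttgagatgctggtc
Lhx1, chr11:84525535-84525784, minus strand: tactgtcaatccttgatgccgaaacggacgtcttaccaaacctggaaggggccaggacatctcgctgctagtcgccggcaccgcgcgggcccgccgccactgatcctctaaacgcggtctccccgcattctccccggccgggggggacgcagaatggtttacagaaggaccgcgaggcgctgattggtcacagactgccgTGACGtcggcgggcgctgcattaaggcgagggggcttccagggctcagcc
The E-box of Prok2 began 135 bases before the start site, and the TGACG of Vip and Lhx1 began 79 and 50 bases before theirs. Neither motif was in this window of Vipr2, Prokr2, Rgs16 or Six6. The E-box was in 6.02% and TGACG in 17.8% of the 32851 promoter windows of this length in the table, so either match alone is common. A match is a description of the letters and not of binding.

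Values are in counts-per-million (CPM) as normalized by the authors. The libraries rested on an estimated 5.47 to 20.8 M reads in KO and 7.29 to 10.98 M reads in WT mice, so the least abundant of these genes, Prok2, had about 7 to 33 reads in a library, and Rgs16 about 118 to 555. Clic1 itself was 0.733 to 1.93 CPM across KO and 3.58 to 5.52 CPM across WT libraries, without overlap. KO replicate 10 is called WT by its title and treatment label but KO by its description and by the name of its column. It was placed with the KO mice by its description, and the results of the 7 genes are also given without it. Its Clic1 was 1.43 CPM, within the range of the other KO libraries. It also had the deepest library, with 20.8 M reads against 5.47 to 7.71 M reads in the other KO libraries. Fold changes were tested with limma on log2(CPM + 0.1), a scale that understates changes of low genes, with Benjamini-Hochberg adjustment over all 14351 genes and a threshold of 0.05. The exact permutation test of single genes was two-sided, and the smallest p it can give is 0.0159 with 9 libraries and 0.0286 without replicate 10. P-values measure the spread between these libraries. In whole hypothalamus, fewer suprachiasmatic cells in a sample and less RNA per cell cannot be told apart.

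None of the 7 genes passed the threshold between KO and WT mice. In limma 0 of 7 had an adjusted p under 0.05, beside 0.286% of all genes (0.139% higher and 0.146% lower in KO mice), and limma-voom on estimated reads also called 0. At an unadjusted p under 0.05 in limma there were 2, Lhx1 and Rgs16, both higher in KO mice, beside 6.5% of all genes. Leaving out KO replicate 10 again gave 0 and 2, beside 0.606% (0.341% higher and 0.265% lower in KO mice) and 10.5% of all genes. With that replicate in the WT group, 0 of 7 passed, beside 0.0348% of all genes (0.0139% higher and 0.0209% lower in KO mice). None of the 7 then had an unadjusted p under 0.05, against 6.65% of all genes. The KO and WT libraries overlapped in all 7 genes, with and without KO replicate 10, whereas 3.41% and 6.06% of all genes showed no overlap. The median log2 fold change of the 7 genes was 0.10, against 0.00 over all genes.

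**Figure D1:**
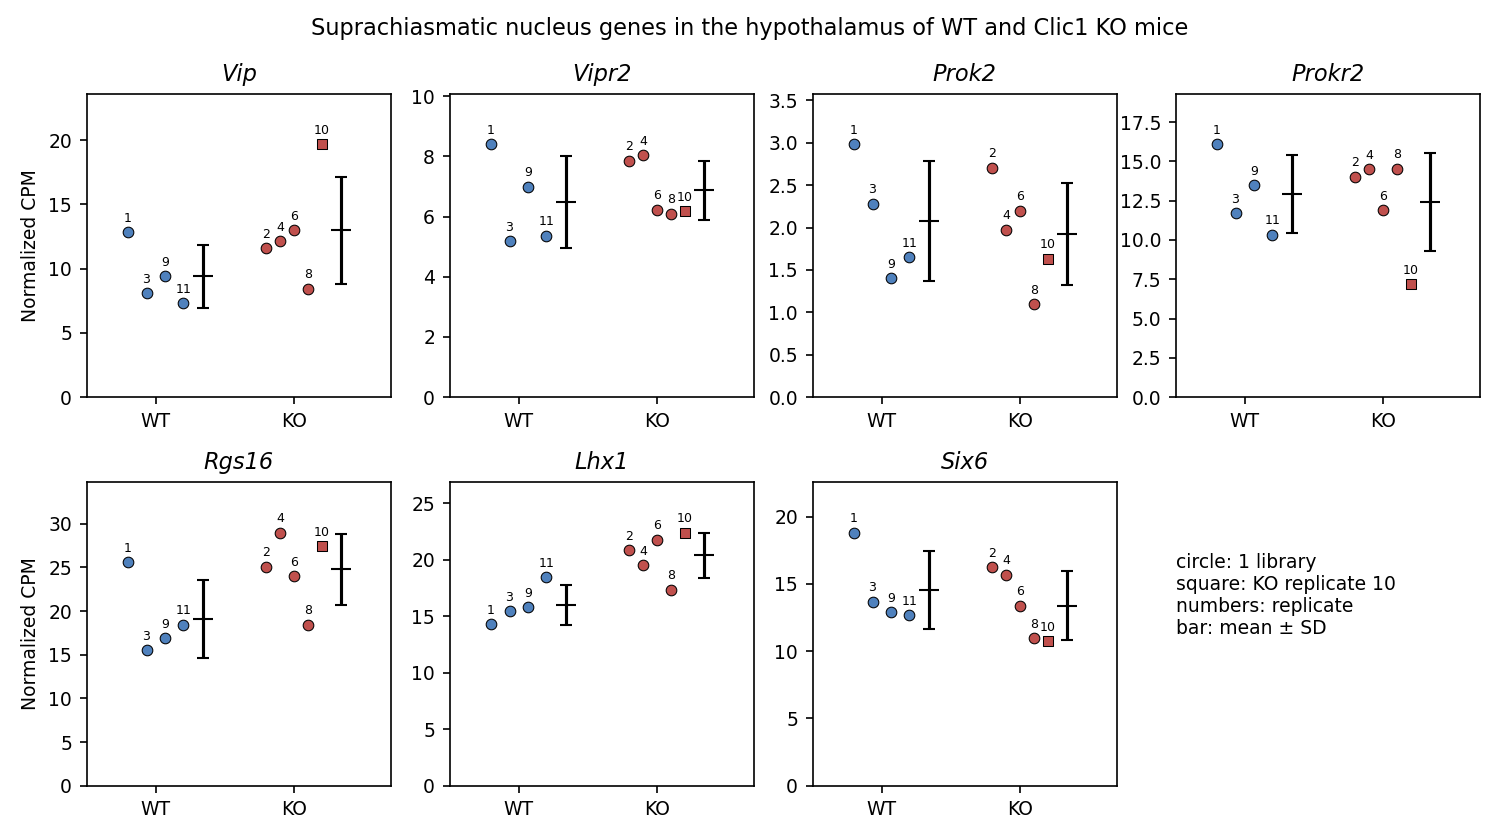
Normalized CPM of the 7 genes (vertical axes, each starting at 0) in the 4 WT libraries (blue) and 5 KO libraries (red), with replicate numbers beside the points, KO replicate 10 as a square and bars for the mean ± SD. The groups overlap in each panel, and WT replicate 1 is the highest WT library in all panels but that of Lhx1. KO replicate 10 holds the highest Vip (19.7 CPM) and Lhx1 (22.4 CPM) and the lowest Prokr2 (7.17 CPM) and Six6 (10.7 CPM).

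Vip (ENSMUSG00000019772), on chromosome 10 of GRCm38, plus strand, 5639218 to 5647617, encodes the peptide of the core neurons. The KO libraries, taken in the order of replicates 2, 4, 6, 8 and 10, held 11.6, 12.1, 13.0, 8.44, 19.7 CPM and the WT libraries, in the order 1, 3, 9 and 11, held 12.8, 8.08, 9.40, 7.30 CPM. KO replicate 10 stood above the other 8 libraries, WT replicate 1 lay among the KO libraries and KO replicate 8 among the WT libraries. KO mice averaged 13.0 ± 4.13 CPM (SD, n = 5) and WT mice 9.41 ± 2.45 CPM (SD, n = 4). On the log2 scale KO minus WT was 0.44 (standard error 0.23, 95% confidence interval -0.05 to 0.93, limma adjusted p = 0.79), and the exact permutation test gave p = 0.159. Without KO replicate 10 the KO mean was 11.3 ± 1.99 CPM and the log2 fold change 0.28 (-0.11 to 0.66, limma adjusted p = 0.642). With that replicate in the WT group it was 0.06, and with sample weights, where replicate 10 weighed 0.129, it was 0.19 (unadjusted p = 0.297 from limma). The size of the Vip difference thus moved by over 1.5 times with this library. The 9-library interval reaches from a KO level 0.963 times that of WT to one 1.91 times as high, so it holds both equal levels and a considerably higher level in KO mice.

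Prok2 (ENSMUSG00000030069), the secreted output signal, is on chromosome 6, minus strand, 99711299 to 99726392. In KO mice the libraries held, in the same order, 2.70, 1.98, 2.20, 1.09, 1.63 CPM and the WT libraries 2.98, 2.28, 1.40, 1.65 CPM. Each group held high and low libraries, and 3 of the 4 WT libraries lay inside the KO range. On the log2 scale KO minus WT was -0.11 (standard error 0.30, limma adjusted p = 0.959, exact permutation p = 0.746), and it was -0.07 without KO replicate 10. Its sign turned to 0.07 without KO replicate 8 and 0.08 without WT replicate 1, so no direction is given. At this depth the interval of the KO to WT ratio ran from 0.586 to 1.47, the widest of the 7 on the log2 scale.

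Vipr2 (ENSMUSG00000011171), the receptor for Vip in this nucleus, is on chromosome 12, plus strand, 116077726 to 116146261. In KO mice the libraries held, in the same order, 7.86, 8.04, 6.23, 6.10, 6.18 CPM and the WT libraries 8.41, 5.18, 7.0, 5.37 CPM. The highest and the lowest values were both in WT libraries. On the log2 scale KO minus WT was 0.10 (standard error 0.17, limma adjusted p = 0.932, exact permutation p = 0.571) and 0.14 without KO replicate 10. As each library was left out it ranged from 0.00 without WT replicate 3 to 0.23 without WT replicate 1. The interval of the ratio, 0.823 to 1.40, includes equal levels.

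Prokr2 (ENSMUSG00000050558), the receptor for prokineticin 2, is on chromosome 2, minus strand, 132337733 to 132385447. The KO libraries held, in the same order, 14.0, 14.5, 11.9, 14.5, 7.17 CPM and the WT libraries 16.1, 11.7, 13.5, 10.3 CPM. KO replicate 10 was below the other 8 libraries, which spanned 10.3 to 16.1 CPM. On the log2 scale KO minus WT was -0.08 (standard error 0.21, limma adjusted p = 0.956, exact permutation p = 0.841). With KO replicate 10 left out, it was 0.10 (-0.19 to 0.40, limma adjusted p = 0.854), with that replicate in the WT group 0.27, and without WT replicate 1 it was 0.03, so its direction is not settled by these libraries. Over the 9 libraries KO replicate 10 was thus the highest for Vip and Lhx1 (22.4 CPM) and the lowest for Prokr2 and Six6 (10.7 CPM). What sets it apart was not tested.

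Rgs16 (ENSMUSG00000026475) is on chromosome 1, plus strand, 153740349 to 153745468. Levels in the KO libraries were, in the same order, 25.1, 29.0, 24.0, 18.5, 27.5 CPM and in the WT libraries 25.6, 15.5, 16.9, 18.5 CPM. As for Vip, WT replicate 1 sat among the KO libraries and KO replicate 8 among the WT libraries. KO mice averaged 24.8 ± 4.05 CPM (SD, n = 5) and WT mice 19.1 ± 4.47 CPM (SD, n = 4). The log2 fold change of 0.38 (standard error 0.16) had an unadjusted p of 0.0354 and an adjusted p of 0.736 from limma, and the exact permutation test gave p = 0.111. Without KO replicate 10 it was 0.34 (limma adjusted p = 0.446). It was 0.23 with that replicate in the WT group (unadjusted p = 0.228 from limma) and 0.25 with sample weights (unadjusted p = 0.121 from limma). As each of the 9 libraries was left out in turn it ranged from 0.29 to 0.53, with adjusted p from 0.446 to 0.992 in limma, and the largest value was that without WT replicate 1. The transcripts of Rgs16 share 236 exon bases with the antisense gene Gm28513, and whether counting used strand was not given in the sources used here.

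Lhx1 (ENSMUSG00000018698) had the smallest unadjusted p of the 7 genes and did not pass after adjustment. It is on chromosome 11, minus strand, 84518284 to 84525535. The KO libraries held, in the same order, 20.9, 19.5, 21.8, 17.4, 22.4 CPM and the WT libraries 14.3, 15.4, 15.8, 18.5 CPM. The groups overlapped only through WT replicate 11, which was above KO replicate 8. KO mice averaged 20.4 ± 2.01 CPM (SD, n = 5) and WT mice 16.0 ± 1.76 CPM (SD, n = 4), a log2 fold change of 0.35 (standard error 0.11, 95% confidence interval 0.11 to 0.59). The unadjusted p was 0.00794 and the adjusted p 0.506 from limma, and the exact permutation test gave p = 0.0317. In the fit lacking KO replicate 10, the log2 fold change was 0.31 (unadjusted p = 0.0108, limma adjusted p = 0.284), and the exact permutation test gave p = 0.0571. It stayed between 0.30 and 0.42 as each library was left out, with unadjusted p up to 0.0316. With replicate 10 in the WT group it was 0.22 (unadjusted p = 0.138 from limma).

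Six6 (ENSMUSG00000021099), needed early for the eye, the pituitary and this nucleus, is on chromosome 12, plus strand, 72939892 to 72944899. Levels in the KO libraries were, in the same order, 16.2, 15.7, 13.4, 10.9, 10.7 CPM and in the WT libraries 18.8, 13.7, 12.9, 12.7 CPM. WT replicate 1 was above all other libraries. On the log2 scale KO minus WT was -0.12 (standard error 0.16, limma adjusted p = 0.916, exact permutation p = 0.587), -0.04 without KO replicate 10, 0.04 with it in the WT group and 0.01 without WT replicate 1. Its exons share 192 bases with the opposite-strand gene 4930447C04Rik. Because Six6 is also a pituitary gene, the pituitary pars tuberalis list is given here. Tshb, a thyrotropin subunit gene, was 3.35 to 7.12 CPM across KO and 7.98 to 16.1 CPM across WT libraries (limma adjusted p = 0.192), and Pitx1, a pituitary homeobox gene, had a log2 difference of -0.84 (unadjusted p = 0.0424, limma adjusted p = 0.759). Of the 4 listed genes 0 passed the threshold, where 41 of all genes did. With sample weights 1 of the 4 passed, where 135 of all genes did. The summed level of the list was 34.9 to 54.2 CPM across KO and 46.1 to 66.4 CPM across WT libraries, highest in WT replicate 1, the library with the highest Six6, and none of its 4 genes averaged under 1 CPM. The part of pituitary RNA in the Six6 values was not tested.

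**Figure D2:**
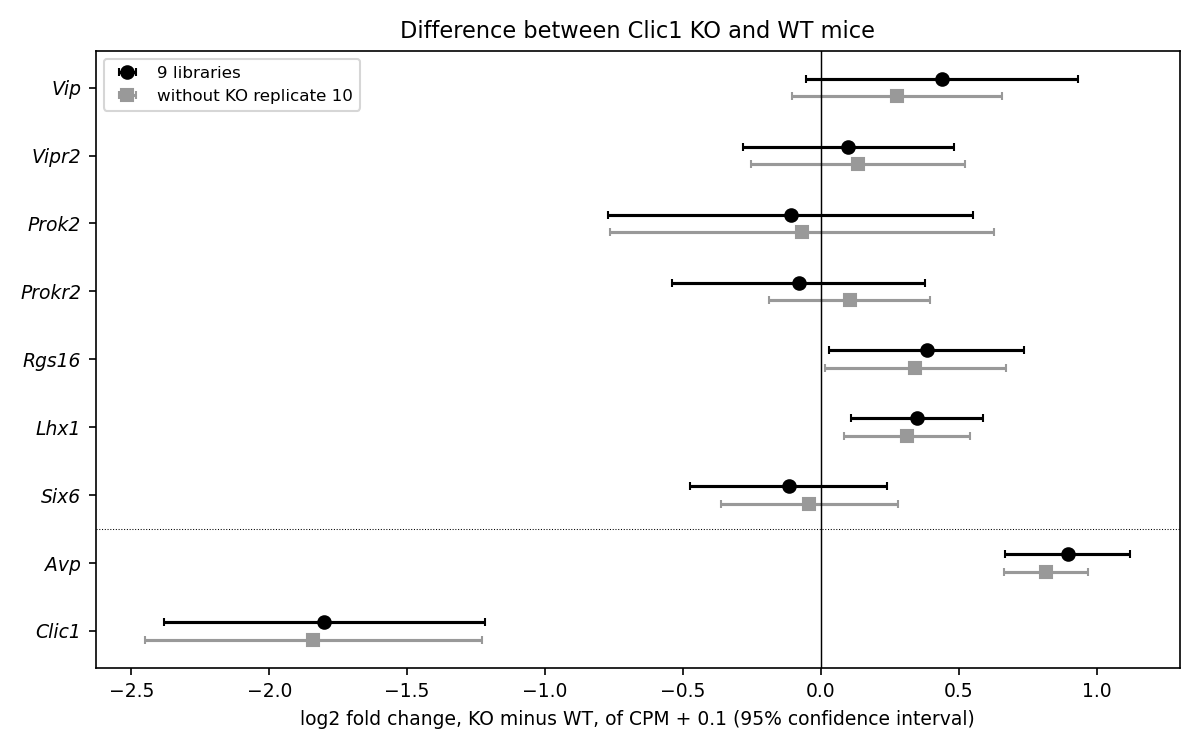
Log2 fold change of CPM + 0.1 between KO and WT mice (horizontal axis) with its 95% confidence interval for the 7 genes and, under the dotted line, Avp and Clic1, from 9 libraries (black circles) and without KO replicate 10 (grey squares). The intervals of Vip, Vipr2, Prok2, Prokr2 and Six6 include 0, those of Rgs16 and Lhx1 start at 0.03 and 0.11 before adjustment, and Prokr2 changes side without replicate 10.

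Per kilobase of annotated exon, and as the mean over all 9 libraries, the levels ran from Rgs16 (9.52 CPM per kb) through Lhx1 (4.53), Six6 (3.46), Vip (3.35), Prokr2 (1.60) and Vipr2 (1.50) to Prok2 (1.04). By these means Vip was above its receptor gene, and Prok2 was below its own. Neighbours in this order were compared library by library with an exact sign-flip permutation test, adjusted over the 6 pairs. The order that set the pairs came from the same libraries, which these p-values do not take into account. Rgs16 was above Lhx1 in 9 of 9 libraries (adjusted p = 0.0117) and Vip above Prokr2 in 9 of 9 (adjusted p = 0.0117). Lhx1 was above Six6 in 8 of 9 (adjusted p = 0.0352) and Vipr2 above Prok2 in 8 of 9 (adjusted p = 0.0156). Six6 and Vip (adjusted p = 0.633) and Prokr2 and Vipr2 (adjusted p = 0.6) did not differ beyond the spread between libraries by the same permutation test. Those calls rest on KO replicate 10. Among the other 8 libraries Six6 was above Vip in 7 (adjusted p = 0.0375) and Prokr2 above Vipr2 in 8 (adjusted p = 0.0156), and the other 4 pairs again passed (exact permutation tests, adjusted p 0.0156 to 0.0469), a comparison added after the values were seen. In KO mice alone the mean of Vip, 3.81 CPM per kb, was above that of Six6, 3.34, whereas in WT mice it was below, 2.76 against 3.62. The exon length is that of all annotated transcripts joined, which need not be the transcript these cells use.

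The 7 genes differed in how far the mice of a group spread. The residual SD within groups, on the log2 scale, was 0.40 for Vip, 0.46 for Prok2, 0.37 for Prokr2, 0.26 for Vipr2, 0.28 for Rgs16, 0.27 for Six6 and 0.15 for Lhx1. The median over the 5160 genes with a mean of 5 to 30 CPM was 0.21, and 90% of them were below 0.36. Vip and Prokr2 were thus among the more variable genes of their level and Lhx1 among the steadier. Without KO replicate 10 the SD was 0.31 for Vip and 0.22 for Prokr2.

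Most pairs of the genes were positively correlated across the mice, but no pair passed the test. Summed over the 7 genes, the KO libraries reached 98.4, 101, 92.5, 76.9, 95.3 CPM and the WT libraries 99.0, 71.9, 76.9, 74.2 CPM, in the order used above. WT replicate 1 was the one WT library at the upper KO level, and KO replicate 8 was at the level of the other WT libraries. Of the 21 pairs of genes, 15 had a positive Pearson r over the 9 libraries (median 0.41), and 19 without KO replicate 10 (median 0.53). No pair passed an adjusted p of 0.05 over the 21 pairs in the exact permutation test, with or without that library.

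The closest pair was Prok2 and Six6. Its Pearson r was 0.84 (exact permutation p = 0.00484, adjusted p = 0.0700) and its Spearman rho 0.87 (exact permutation p = 0.00451, adjusted p = 0.0947) over 9 libraries. Left without KO replicate 8 and WT replicate 1, the libraries farthest from the median of Prok2, r was 0.68. It was 0.88 without KO replicate 10 and 0.84 for deviations from the group means. Vip and Rgs16 followed, with r = 0.82 (exact permutation p = 0.00666, adjusted p = 0.0700) and rho = 0.72 (exact permutation p = 0.0369, adjusted p = 0.280). For this pair r was 0.90 without the farthest libraries, KO replicate 10 and WT replicate 11, 0.81 without WT replicate 1, and 0.74 for deviations from the group means.

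The ligands and their receptors were less closely tied when all libraries were used. Vip and Vipr2 had r = 0.44 (rho = 0.57, exact permutation p = 0.242 and 0.121, adjusted p = 0.468 and 0.362), rising to 0.79 without KO replicate 10 (exact permutation p = 0.0326, adjusted p = 0.127). Prok2 and Prokr2 had r = 0.24 (rho = 0.22, exact permutation p = 0.543 and 0.581, adjusted p = 0.671 and 0.791) and 0.16 without that library. The receptors Vipr2 and Prokr2 had r = 0.58 (rho = 0.65, exact permutation p = 0.0951 and 0.0666, adjusted p = 0.333 and 0.280) with all libraries and 0.83 without it. Leaving out the farthest libraries instead gave r of 0.72, 0.37 and 0.36 for these pairs in turn. Lhx1 took part in 4 of the 6 pairs with a negative r. Its r with Vip and Rgs16 was 0.52 and 0.55 (exact permutation p = 0.147 and 0.125, rho = 0.52 and 0.50), but 0.21 and 0.13 for deviations from the group means. Its r with Six6 was -0.34, with Prokr2 -0.54 and with Vipr2 -0.06 over 9 libraries (rho = -0.37, -0.47 and -0.02, exact permutation p of r 0.361, 0.13 and 0.881, of rho 0.336, 0.213 and 0.982, none under 0.05 after adjustment). Leaving out the farthest libraries gave 0.44, -0.29 and 0.33, and leaving out KO replicate 10 -0.14, -0.28 and 0.01.

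**Figure D3:**
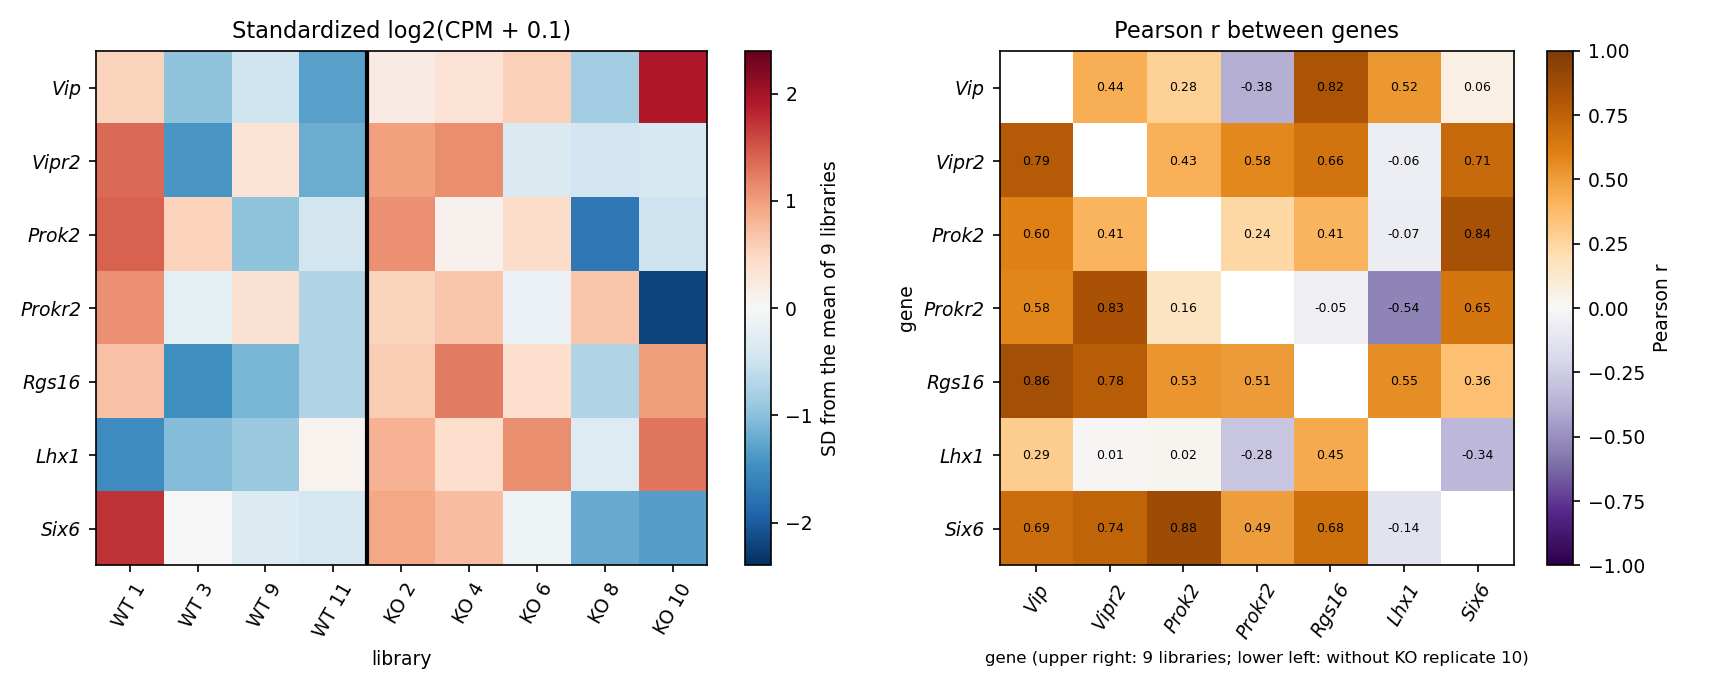
Left, log2(CPM + 0.1) of each gene (rows) in each library (columns; WT left of the line, KO right), in SDs from the mean of the 9 libraries. Right, Pearson r for each pair of genes, with 9 libraries in the upper right and without KO replicate 10 in the lower left; over 9 libraries r is negative in 6 of 21 pairs, of which 4 include Lhx1, and Vip with Prokr2 turns from -0.38 to 0.58.

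Other genes were ranked by the Pearson r of their log2(CPM + 0.1) with the mean of the 7 standardized genes over the 9 libraries, among the 12066 genes averaging 5 CPM or more. The most alike were Kif26a (r = 0.89), Irak2 (0.88), Sall3 (0.88), Zfp526 (0.86) and Adck2 (0.86), and none of them passed the threshold between KO and WT mice (adjusted p 0.862 to 0.997 in limma). Over the 8 libraries without KO replicate 10, Sall3, a zinc-finger transcription factor gene, was first, with r = 0.92. Of the 17 other suprachiasmatic genes measured, Six3 (r = 0.75), a homeobox gene of the same family as Six6, and Syt10 (r = 0.73), a synaptotagmin gene enriched in the nucleus, had r of at least 0.7, beside 0.497% of the 12066 genes. Only 9 of the 17 averaged 5 CPM or more as those genes did, and both are among the 9. Without replicate 10 the count was again 2 of 17, beside 1.77% of genes. These values are descriptions over 9 libraries of unequal depth.

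The list of other suprachiasmatic genes held 19 genes, of which Nms and Mtnr1a were not in the table. Of the 17 measured, 0 passed the threshold in limma and 0 had an unadjusted p under 0.05, with log2 fold changes of -0.35 to 0.41 and a median of -0.03. Rax, a homeobox gene of the ventral hypothalamus, was 4.33 to 5.54 CPM across KO and 2.76 to 4.31 CPM across WT libraries, without overlap but short of the threshold (limma adjusted p = 0.788). Lhx2, another LIM homeobox gene, had a log2 fold change of -0.27 (limma adjusted p = 0.828). Grp, the gastrin-releasing peptide of light-responsive core neurons, averaged 3.10 ± 1.03 CPM (SD, n = 5) across KO and 3.12 ± 0.220 CPM (SD, n = 4) across WT libraries. Leaving out KO replicate 10, 1 of the 17 had an unadjusted p under 0.05, the cholecystokinin gene Cck (log2 difference -0.36, limma adjusted p = 0.403).

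The receptor for Vip signals mainly through adenylyl cyclases and protein kinase A, and that for prokineticin 2 mainly through Gq proteins and phospholipase C. In the signal chain list 0 of 24 genes passed the threshold in limma, and 1, the adenylyl cyclase gene Adcy5, had an unadjusted p under 0.05. Adcy5 averaged 276 ± 16.5 CPM (SD, n = 5) across KO and 247 ± 12.9 CPM (SD, n = 4) across WT libraries, a log2 fold change of 0.16 (limma adjusted p = 0.703), and Adcy3 had 0.13 (limma adjusted p = 0.828). Among 15 other Rgs genes 0 passed the threshold and 0 had an unadjusted p under 0.05, with log2 fold changes of -0.14 to 0.16. Rgs17 and Rgs4 had the smallest p among them, with -0.14 and -0.13 (adjusted p = 0.862 and 0.848 from limma). Leaving out KO replicate 10, the genes with an unadjusted p under 0.05 were Adcy5 and Adcy2 in the signal chain list (Adcy2 log2 difference -0.19, limma adjusted p = 0.128) and Rgs4 among the Rgs genes (-0.20, limma adjusted p = 0.208). Of 11 measured other LIM and sine oculis homeobox genes, 0 passed and 0 had an unadjusted p under 0.05.

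Because the time of day of collection was not given, genes whose RNA follows the clock are placed beside Prok2, Rgs16 and Vip. Of 13 clock phase genes 0 passed the threshold in limma, and 1 had an unadjusted p under 0.05, beside 6.5% of all genes. That gene, Dbp, a clock-controlled transcription factor gene, averaged 80.01 ± 14.7 CPM (SD, n = 5) across KO and 64.0 ± 6.69 CPM (SD, n = 4) across WT libraries (log2 fold change 0.31, limma adjusted p = 0.695). Per2, of the negative arm of the clock, was 43.3 ± 4.40 and 37.3 ± 4.09 CPM (log2 fold change 0.22, limma adjusted p = 0.767). Of the 13 genes 9 had a positive log2 difference, and among those that follow the same phase as Dbp, Nr1d1 had -0.12 and Per1 -0.08 (limma adjusted p = 0.897 and 0.929). Arntl, which peaks at the opposite phase, had -0.07 (limma adjusted p = 0.889). KO replicate 10 was the lowest KO library for Nr1d1 and Per1. Without it Nr1d1 had 0.03, Per1 0.05 and Arntl -0.09, and the median of the 13 genes was 0.10, against 0.07 with it. With replicate 10 left out, 4 of the 13 had an unadjusted p under 0.05, beside 10.5% of all genes, and 0 passed the threshold. These were Per2 (log2 difference 0.26), Per3 (0.22), Dbp (0.21) and Bhlhe41 (0.16), all higher in KO mice (limma adjusted p 0.209 to 0.313). Whole hypothalamus holds clocks outside this nucleus as well, and the part of sampling time in the values was not tested.

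Avp, left out of the 7 genes, passed the threshold in these mice, with a log2 difference of 0.90 (limma adjusted p = 0.0027) and 0.82 without KO replicate 10. With that replicate in the WT group it was 0.58 and did not pass (limma adjusted p = 0.687), and Clic1 itself then did not pass either (limma adjusted p = 0.501). In the main limma fit over the 9 libraries no signature gene had a log2 difference above 0.44. The interval of Vip over the 9 libraries, -0.05 to 0.93, reached the value of Avp, and limma-voom on estimated reads gave 0.53 for Vip and 0.90 for Avp. Without KO replicate 10 the Vip interval, -0.11 to 0.66, ended below the Avp value of 0.82.

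Markers of other nuclei and tissues that a hypothalamic dissection can hold were followed in the same fit. In limma 0 genes passed the threshold in each of the lists for the arcuate nucleus (6 measured of 7), paraventricular and supraoptic nuclei (5 of 5), ventromedial nucleus (3 of 3), lateral hypothalamus (4 of 4), thalamus (5 of 6), striatum (6 of 6), cerebral cortex (3 of 5), oligodendrocytes (6 of 6), ependymal cells (5 of 5), pars tuberalis (4 of 4) and astrocytes (6 of 6). Oligodendrocyte genes matter here because the nucleus rests on the myelinated optic chiasm. Their summed level was 3481 to 3943 CPM across KO and 3709 to 4550 CPM across WT libraries, and Mbp, myelin basic protein, had a log2 fold change of -0.22 (unadjusted p = 0.0279, limma adjusted p = 0.705). WT replicate 1, the highest WT library for 6 of the 7 signature genes, had the lowest WT value of this list, 3709 CPM against 4077 to 4550 CPM in the other WT libraries. The part of chiasm tissue in the levels of the signature genes was not tested.

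The remaining lists had these summed levels. Thalamic markers were 283 to 404 CPM in KO, with the top in replicate 10, and 283 to 329 CPM in WT libraries. That top rests on Calb2, which alone was 296 CPM in replicate 10, its highest KO value. Tcf7l2, Lef1 and Ntng1 of the same list were there at their lowest KO values, and Prkcd was neither highest nor lowest. Cortical markers, which matter because cortical interneurons also make Vip, were 8.86 to 14.5 CPM across KO and 9.78 to 14.1 CPM across WT libraries, with replicate 10 at 8.86 CPM where Vip was highest. Paraventricular and supraoptic markers without Avp were 121 to 193 CPM across KO and 154 to 177 CPM across WT libraries, lowest in replicate 10. Arcuate markers were 81.7 to 116 and 89.0 to 124 CPM, ventromedial 143 to 158 and 147 to 176, and lateral hypothalamic 355 to 500 and 362 to 409 in KO and WT libraries. Striatal markers were 163 to 174 and 167 to 177 CPM, ependymal 30.8 to 37.9 and 32.1 to 40.9, and astrocytic 1718 to 2235 and 1756 to 2055. The groups overlapped in each of these sums. In each list the genes with the smallest p were, with their log2 differences, Npy (-0.27) and Tbx3 (-0.25), Oxt (0.29) and Trh (-0.15), Fezf1 (-0.14) and Adcyap1 (-0.10), Pmch (0.25) and Cartpt (0.20), Prkcd (0.16) and Ntng1 (-0.11), Neurod6 (0.21) and Tbr1 (0.33), Drd2 (-0.21) and Ppp1r1b (-0.22), Foxj1 (-0.10) and Tmem212 (0.26), and Agt (-0.20) and Gja1 (-0.10). Only Agt among these had an unadjusted p under 0.05 (0.0461, limma adjusted p = 0.759). Again 0 genes of these lists passed the threshold without KO replicate 10. In that fit 10.5% of all genes had an unadjusted p under 0.05. Among the lists, 2 paraventricular and supraoptic genes had one and were higher in KO mice, Oxt (0.34) and Otp (0.18). The others were lower in KO mice. They were 1 striatal gene (Ppp1r1b, -0.30) and 3 oligodendrocyte genes (Mbp -0.15, Mog -0.29, Cnp -0.15). Also lower were 2 pars tuberalis genes (Tshb -1.06, Pitx1 -0.81) and 2 astrocyte genes (Slc1a3 -0.13, Agt -0.22).

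**Figure D4:**
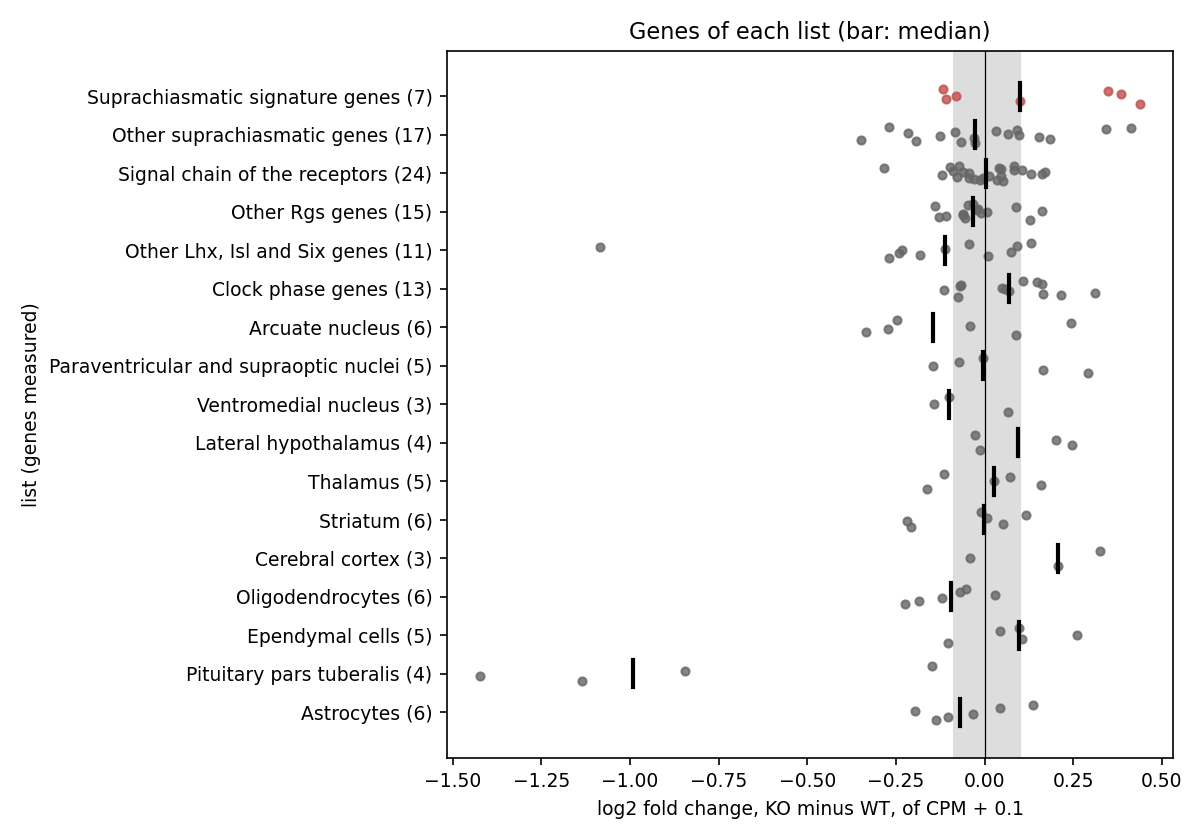
Log2 fold change of CPM + 0.1 between KO and WT mice (horizontal axis) for each gene of the signature (red) and of the other lists (grey), with the number of genes measured, a black bar for the list's median and a grey band for the middle 50% of all genes. The signature genes lie between -0.12 and 0.44, and the pars tuberalis list has the lowest median, -0.99, with no gene past the threshold in the 9-library fit without sample weights.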

How the data were processed

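RNA sequencing covered the hypothalamus of 5 KO and 4 WT mice. The authors trimmed reads with Trimmomatic 0.38, aligned them to GRCm38.p6 with STAR 2.5.1a, estimated reads per gene with RSEM 1.3.0 and Ensembl release 98, kept genes with at least 1 CPM in at least 5 samples, and applied TMM factors with edgeR. The deposited signal is this normalized CPM, whose column sums differ slightly between libraries. RSEM estimates are fractional, and 81.0% to 86.4% of values up to 2.5 CPM were within 0.03 of a whole read, from which the library totals were estimated. The authors' second table holds fold changes, mean expression, test statistics and p-values of their own comparison, of which none was used; gene symbols were taken from it. A further 1 column, named like those of the WT libraries, could be tied to no sample and stayed out, so the WT n is 4.

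Groups came from the labels, with replicate 10 placed by its description. limma 3.58.1 in R 4.3.3 (condition only, with a trend) was fitted to log2(CPM + 0.1) over all 14351 genes and tested on simulated data. Exact permutation tests used numpy 2.4.6. Positions and exon lengths came from GENCODE mouse release 21 on GRCm38. Alternatives were pseudocounts of 0.5 and 1 CPM, a mean of at least 5 CPM, other scalings, no trend, sample weights, limma-voom on estimated reads, replicate 10 as WT and leaving out each library. The genes named were the 7, those past the threshold or with the 2 smallest p in each list, and the 5 most alike, with others named for their role after their values were seen; a few genes under this rule are not reported here. The 7 genes and the lists were chosen with earlier results of these data known.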

Additional observations from a re-analysis of the deposited data

Results flagged for a closer look

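Of 14 groups of values (7 genes in KO and in WT libraries), 1 held a library far from the others of its group, against 0.7 expected by chance at 1 in 20. Six6 in WT replicate 1 was 18.8 CPM, whereas the other WT libraries had 12.7 to 13.7 CPM. Without it the Six6 log2 fold change was 0.01 instead of -0.12.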

How the results depend on the processing

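Of 125 refits of the 7 genes' fold changes, 117 kept their direction and 0 of the 7 genes passed the threshold in any of them. The 8 others turned in sign. Prokr2 turned to 0.038 with sample weights and 0.27 with replicate 10 in the WT group, and ranged from -0.18 to 0.10 as each library was left out, positive without KO replicate 10 or WT replicate 1. Six6 turned to 0.040 with replicate 10 in the WT group and ranged from -0.19 to 0.014, positive without WT replicate 1. Prok2 ranged from -0.27 to 0.077, positive without KO replicate 8 or WT replicate 1, and could not be tested above a mean of 5 CPM. The count of all genes past the threshold, 41, became 27 above a mean of 5 CPM, 135 with sample weights, 5 with replicate 10 in the WT group, and 18 (without WT replicate 1) to 87 (without KO replicate 10) as each library was left out; the cause was not tested. Adjusted p for Lhx1 ranged from 0.151 to 0.989 over all alternatives in limma. No paired analysis was made. KO and WT libraries share no replicate number, and the litter of each mouse was not given in the sources used here. Few reads limit Prok2 most.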
